A study of Mus musculus with 12 samples.

Results

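Transcripts of the mouse DNA methylation and TET enzymes were examined in embryonic stem (ES) cells with reduced *Kdm6a*, the X-linked gene of a histone H3K27 demethylase. The genes were chosen by name, as members of this pathway: *Dnmt1*, *Dnmt3a*, *Dnmt3b*, *Dnmt3l*, *Uhrf1*, *Tet1*, *Tet2*, *Tet3*, *Tdg* and *Mbd1*, 10 genes in all. Of these, 9 had a probe set of their own among the 19938 genes on the arrays, and all 9 were among the 15309 genes that passed the minimum level and were tested. *Tdg*, the glycosylase that excises oxidized methylcytosine, was read only by 4 probe sets that its pseudogene *Tdg-ps2* shares, and was described but not tested.

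DNA methylation in mammals sits mostly on cytosines that precede a guanine. DNMT1 copies it to the new strand at replication with the help of UHRF1, DNMT3A and DNMT3B place it on unmodified DNA with the catalytically inactive partner DNMT3L, and TET enzymes oxidize methylcytosine as a step towards its removal. ES cells held in serum and LIF are known for abundant DNMT3B, DNMT3L and TET1, and female ES cells with both X chromosomes active are known for less methylated genomes than male ones.

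The samples were 12 Affymetrix Mouse Gene 1.0 ST arrays of total RNA from undifferentiated PGK12.1 cells, a female line from a 129 female and a (129 X PGK)F1 male, and WD44 cells, a male line from BL6 blastocysts. Each experiment held 1 array of cells given a pool of siRNAs against *Kdm6a* and 1 of cells given Invitrogen Stealth negative control siRNAs, with 4 experiments in PGK12.1 and 2 in WD44. Cells of PGK12.1 experiments 1 and 2 received 100 pmol of siRNA for 48 h and 400 pmol for a further 24 h (double RNAi). The WD44 experiments, and experiments 3 and 4 of PGK12.1, stopped after 100 pmol for 48 h (single RNAi). All cells were grown with LIF, transfected with Lipofectamine RNAiMax, and depleted of MEF feeders on gelatin, and a transient siRNA leaves part of the transcript in place. Each line is 1 derivation, so that sex, strain and line cannot be told apart, and whether experiments used separate cultures is stated only in part, so that the spread between them may be technical.

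*Kdm6a* itself, on the deposited log2 scale, went from 9.37 to 8.10, 9.57 to 8.07, 10.03 to 8.61 and 11.86 to 10.90 in PGK12.1 experiments 1 to 4. In WD44 it went from 11.29 to 10.35 and from 11.29 to 10.37. The RNAi array was the lower of the pair in all 6 experiments, a mean change of -59% in PGK12.1 (limma, Benjamini-Hochberg adjusted p = 0.000293) and -47.5% in WD44 (limma, adjusted p = 0.13, unadjusted p = 8.47e-06). All 9 ES cell markers were at or above 0.1 of the array mean on every array, with summed levels of 68.3 to 97.7 array means on PGK12.1 controls, 68.2 to 95.4 after *Kdm6a* RNAi, and 56.6 to 59.4 in WD44. Summed feeder fibroblast markers (10 of 10 measured) stood at 1.61 to 2.48 on PGK12.1 controls, 1.59 to 2.44 after RNAi, 2.24 to 2.41 on WD44 controls and 2.49 to 2.64 after RNAi, and their part in the results was not tested. The Y-linked markers (3 of 4 measured) summed to 0.0929 to 0.135 array means on PGK12.1 controls and 1.94 to 2.06 on WD44 controls. The female marker *Xist* read 0.105, 0.0877, 0.161 and 0.351 array means on PGK12.1 controls 1 to 4, and 0.158, 0.2, 0.161 and 0.406 after RNAi. In WD44 it read 0.098 and 0.104 on controls and 0.0959 and 0.108 after RNAi. X chromosome activity was not tested. Array medians were 6.15 to 6.21 in PGK12.1 experiments 1 and 2, 6.47 to 6.48 in experiment 3, 8.20 to 8.21 in experiment 4 and 8.03 to 8.08 in WD44, so RNAi effects were taken within an experiment.

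The promoter windows of 3 genes, *Dnmt3b*, *Dnmt3a* and *Tet3*, are shown because the results turn on them. Each runs from 250 bases before to 50 bases after a RefSeq transcription start of GRCm38.p6, 5′ to 3′ on the gene's strand, and the *Dnmt3a* window is the furthest downstream of 3, the start inside the gene known to give the short form of ES cells. Capitals mark the letters GGGCGG or their reverse complement, a GC box, the known binding letters of SP1-type factors.

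Dnmt3b, chr2:153649199-153649498, plus strand: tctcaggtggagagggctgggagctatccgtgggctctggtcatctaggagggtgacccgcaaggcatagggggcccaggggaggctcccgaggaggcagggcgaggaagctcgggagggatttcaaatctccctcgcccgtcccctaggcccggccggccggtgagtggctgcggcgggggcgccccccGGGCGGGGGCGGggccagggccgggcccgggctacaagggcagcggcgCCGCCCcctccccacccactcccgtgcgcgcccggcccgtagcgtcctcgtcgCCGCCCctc

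Dnmt3a, chr12:3891494-3891793, plus strand: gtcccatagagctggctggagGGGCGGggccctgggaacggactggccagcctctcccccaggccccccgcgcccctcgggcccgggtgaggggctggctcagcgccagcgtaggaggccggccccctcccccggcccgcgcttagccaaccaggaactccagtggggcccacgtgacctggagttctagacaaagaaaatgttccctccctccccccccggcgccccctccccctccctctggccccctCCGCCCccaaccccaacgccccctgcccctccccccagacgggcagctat

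Tet3, chr6:83441629-83441928, minus strand: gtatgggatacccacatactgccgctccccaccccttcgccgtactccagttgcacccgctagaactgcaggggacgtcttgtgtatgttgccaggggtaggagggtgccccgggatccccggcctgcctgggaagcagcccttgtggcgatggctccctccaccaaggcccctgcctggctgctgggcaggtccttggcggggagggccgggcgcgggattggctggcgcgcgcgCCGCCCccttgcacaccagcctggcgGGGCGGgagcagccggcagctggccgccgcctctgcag

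The *Dnmt3b* window held 4 GC boxes and 30 CG dinucleotides, the *Dnmt3a* window 2 and 18, and the *Tet3* window 2 and 22, beside a median of 7 CG over 32851 promoter windows. A GC box on either strand was present in 35.7% of those windows, so its letters are common. The letters GGTCTCTAA, the known motif of PRDM14, were in 0.256% of windows on either strand. They were in none of the windows searched for the listed genes, which left out *Mbd1*, and letters this rare say little by their absence. No methylation was measured in these samples.

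Before *Kdm6a* was reduced, 2 of the 9 tested transcripts were called between the lines, where 18.6% of all tested genes were. *Dnmt3b* and *Tet3* were lower in female PGK12.1 than in male WD44 control cells, by 2.15-fold and 2.13-fold, and both passed the test, but neither did once arrays of like median were treated as a random block. Control arrays were brought to 1 scale by quantile normalization for this comparison. In bulk RNA, fewer cells with a transcript and less of it per cell cannot be told apart.

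Among de novo methyltransferases, *Dnmt3b* measured 10.78, 10.75, 10.57 and 10.47 (normalized log2 level) on PGK12.1 control arrays 1 to 4 and 11.70 and 11.80 on WD44 control arrays. Every PGK12.1 array was lower than both WD44 arrays, by 1.11 on the log2 scale (SE 0.139, 95% interval -1.44 to -0.78, limma adjusted p = 0.00408). With array set as a random block the difference was -1.15 with an adjusted p of 0.0964 in limma. Without WD44 experiment 1 or 2, which leaves 1 WD44 control, the difference was -1.18 or -1.08. PGK12.1 experiment 4, whose deposited median was near that of WD44, gave a deposited log2 value for *Dnmt3b* of 11.39 beside 12.44 and 12.52.

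*Dnmt3l* measured 11.25, 11.21, 11.87 and 11.73 in PGK12.1 and 12.21 and 12.17 in WD44. The groups did not overlap, with PGK12.1 the lower, but the difference of -0.67 (SE 0.22) missed the threshold (limma adjusted p = 0.0736). It passed without PGK12.1 experiment 4 (-0.76, limma adjusted p = 0.0186), where 8858 of the 15309 tested genes were called. *Dnmt3a* lay at 10.41, 10.30, 9.86 and 9.38 in PGK12.1, around the 10.08 and 10.14 of WD44. Its range within PGK12.1 exceeded the distance between the line means (-0.12, SE 0.289).

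Of the maintenance pair, *Dnmt1* was nearly level, at 11.36, 11.37, 11.15 and 11.53 in PGK12.1 and 11.37 and 11.40 in WD44. *Uhrf1*, whose protein recognizes hemimethylated DNA, stood the other way from *Dnmt3b*: 11.85, 11.82, 11.90 and 11.02 in PGK12.1 against 10.81 and 10.85 in WD44. All PGK12.1 arrays were the higher, with experiment 4 close to WD44, and the difference of 0.82 (SE 0.261) did not pass (limma adjusted p = 0.0692) and turned to -0.35 on deposited values, where the median of all genes was -1.22. Without experiment 4 the *Uhrf1* difference was 1.04 and passed (limma adjusted p = 0.000151), where 8858 of the 15309 tested genes were called. The control array of experiment 4 was also the highest of the PGK12.1 controls for *Dnmt1*, *Tet1*, *Tet2* and *Tet3*, and the lowest for *Dnmt3a* and *Dnmt3b*.

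The TET genes did not move as 1 group. *Tet3* read 6.87, 6.84, 7.14 and 7.69 in PGK12.1 and 8.17 and 8.28 in WD44, a difference of -1.09 (SE 0.25, 95% interval -1.68 to -0.50, limma adjusted p = 0.0283) without overlap. On PGK12.1 controls it stood at 0.17, 0.152, 0.152 and 0.346 of the array mean, near the minimum of 0.1. On WD44 controls it stood at 0.468 and 0.507. Its adjusted p rose to 0.262 with the random block, to 0.144 with single RNAi controls alone, and to between 0.0703 and 0.227 when any 1 control other than PGK12.1 experiment 4 was left out. PGK12.1 experiment 4 gave a deposited log2 value for *Tet3* of 8.72 beside 9.09 and 9.20 in WD44, a smaller gap than that of the line means. *Tet1*, the main TET enzyme of ES cells, read 12.19, 12.24, 11.66 and 12.44 against 12.41 and 12.43, and *Tet2* read 10.01, 10.11, 9.53 and 11.09 against 10.21 and 9.98. Both overlapped between the lines.

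*Mbd1*, a reader that binds methylated DNA, measured 8.62, 8.63, 8.34 and 8.36 in PGK12.1 and 8.97 and 9.02 in WD44, lower without overlap, and missed the threshold (-0.51, SE 0.143, limma adjusted p = 0.0508). It passed with each array centred on its median (limma adjusted p = 0.0285). It also passed without PGK12.1 experiment 4 (limma adjusted p = 0.0148), where 8858 of the 15309 tested genes were called. With all controls, 2 of the 9 genes were called in either direction, both lower in PGK12.1, where 18.6% of all tested genes were called (1538 lower, 1304 higher). The PGK12.1 and WD44 arrays did not overlap for 4 genes lower in PGK12.1 (*Dnmt3b*, *Dnmt3l*, *Tet3*, *Mbd1*) and 1 higher (*Uhrf1*), where 24.5% and 26.3% of all genes did so. *Kdm6a* differed by 0.21 on this scale (SE 0.174, limma adjusted p = 0.396).

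**Figure D1:**
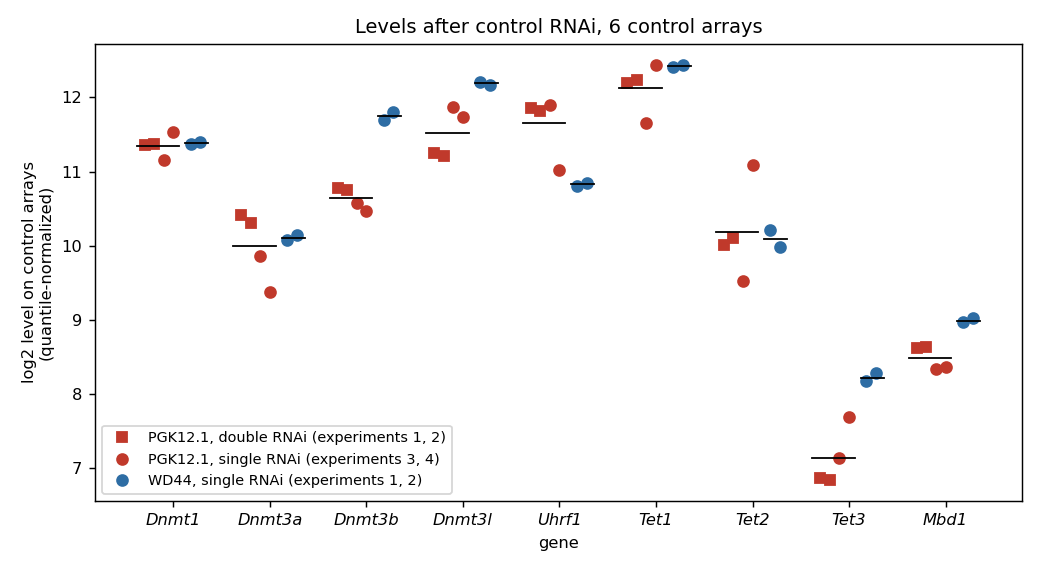
Quantile-normalized log2 levels (y axis) of the 9 tested genes (x axis) on the 6 control arrays, red for PGK12.1 (squares for double, circles for single RNAi) and blue for WD44, with a black line at each line's mean. *Dnmt3b*, *Dnmt3l*, *Tet3* and *Mbd1* lie lower and *Uhrf1* higher on every PGK12.1 array than on both WD44 arrays, and levels are to be compared within a gene only.

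After *Kdm6a* RNAi in PGK12.1, none of the 9 genes passed the test across all 4 experiments. *Dnmt3b* came nearest, with a mean of -0.26 on the log2 scale, and *Dnmt3a* followed at -0.16, and these alone were lower in every PGK12.1 experiment. In the double RNAi experiments taken as an effect of their own, *Dnmt3b* fell by 0.43 on the log2 scale and passed. The question addressed here is whether reduction of an H3K27 demethylase was accompanied by a change in the transcripts of the DNA methylation machinery.

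For *Dnmt3b*, the control and *Kdm6a* RNAi arrays read 9.71 and 9.28 in PGK12.1 experiment 1, 9.69 and 9.26 in experiment 2, 10.11 and 9.98 in experiment 3, and 11.39 and 11.35 in experiment 4 (deposited log2). In WD44 they read 12.44 and 12.52, then 12.52 and 12.45. The decrease was largest in both double RNAi experiments and small in experiment 4, and in WD44 the experiments went opposite ways. Over the 4 PGK12.1 experiments the change was -15.7% ± 11.8 (SD, n = 4), or -0.26 on the log2 scale (SE 0.0709, 95% interval -0.42 to -0.10, limma unadjusted p = 0.00486, adjusted p = 0.0639). In WD44 it was 0.00 (SE 0.1, interval -0.22 to 0.23, limma adjusted p = 0.983). The difference between the lines, -0.26 (SE 0.123, interval -0.54 to 0.01), did not pass (limma adjusted p = 0.255). In this and all other differences between line responses, PGK12.1 joins double and single RNAi while WD44 had single RNAi only. Line is thus mixed with dose and time, and the single RNAi effect in PGK12.1 was -0.09.

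The double RNAi effect on *Dnmt3b* was -0.43 (SE 0.0632, 95% interval -0.57 to -0.29, limma adjusted p = 0.0169) and the single RNAi effect -0.09 (interval -0.23 to 0.06, limma adjusted p = 0.612). Double minus single RNAi was -0.35 (SE 0.0894, interval -0.55 to -0.14) with an unadjusted p of 0.00431 and an adjusted p of 0.504 in limma, so the rounds were not shown to differ. Dose, time and array scale change together between these experiments and cannot be told apart. *Dnmt3b* was the 1 member called lower under double RNAi, where 1.35% of all genes were called lower and 2.25% higher, and 0 members were called under single RNAi, where 0.412% were called lower and 0.359% higher. *Kdm6a* changed by -1.27 and -1.50 in the double and by -1.42 and -0.96 in the single experiments. *Dnmt3b* changed by -0.43 and -0.43, and by -0.13 and -0.04. A relation between the 2 genes was not tested.

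*Dnmt3a* read 9.31 and 9.07, 9.23 and 9.10, 9.33 and 9.20, and 10.35 and 10.22 (control and *Kdm6a* RNAi, PGK12.1 experiments 1 to 4). Each decrease was small and of like size, -10.3% ± 3.35 (SD, n = 4), and the limma adjusted p was 0.123 (log2 change -0.16, SE 0.0543, unadjusted p = 0.0164). WD44 gave 10.96 and 10.96, then 11.01 and 10.71, a mean of -0.15 (SE 0.0768, interval -0.32 to 0.02, limma adjusted p = 0.371) carried by experiment 2. *Dnmt3a* thus had nearly the same mean in the lines, -0.01 apart (interval -0.22 to 0.20).

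*Dnmt3l* read 10.20 and 10.03, 10.19 and 10.04, 11.57 and 11.47, and 12.55 and 12.62 in PGK12.1, lower in experiments 1 to 3 and higher in experiment 4. Its mean was -0.09 (SE 0.0497, limma adjusted p = 0.34), with -0.16 under double RNAi (limma adjusted p = 0.186). WD44 gave 12.88 and 12.86, then 12.85 and 12.82, a mean of -0.03 (interval -0.18 to 0.13).

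**Figure D2:**
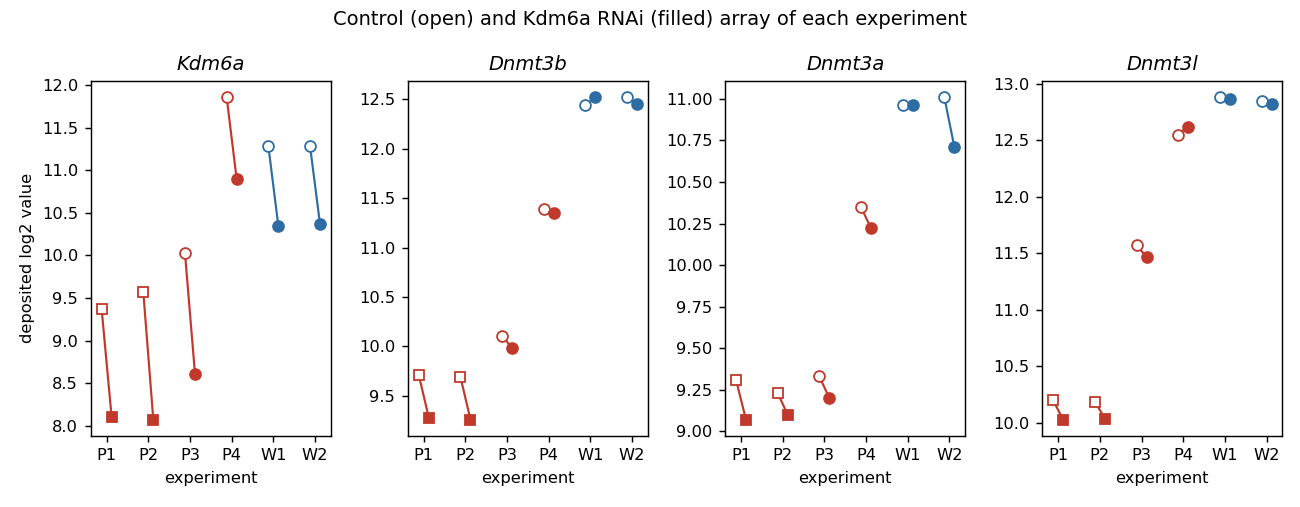
Deposited log2 values (y axis, a scale of its own in each panel) of *Kdm6a*, *Dnmt3b*, *Dnmt3a* and *Dnmt3l* on the control array (open) and the *Kdm6a* RNAi array (filled) of each experiment (x axis, P1 to P4 for PGK12.1 in red and W1 and W2 for WD44 in blue, squares for double RNAi). *Kdm6a* drops in all 6 pairs, and *Dnmt3b* changes by -0.43 in P1 and P2 and by -0.13 and -0.04 in P3 and P4.

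Neither maintenance gene passed the test after RNAi. *Dnmt1* read 10.34 and 10.46, 10.38 and 10.43, 10.75 and 10.80, and 12.36 and 12.43 in PGK12.1, the RNAi array the higher each time. The mean of 0.07 (SE 0.041, 95% interval -0.02 to 0.16) did not pass (limma adjusted p = 0.338), and WD44 gave 0.02 and -0.04. *Uhrf1* read 10.87 on all 4 arrays of experiments 1 and 2, 11.60 and 11.59 in experiment 3, and 11.90 and 11.81 in experiment 4, a mean of -0.03 (interval -0.13 to 0.08). In WD44 its differences were 0.06 and -0.14.

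The TET genes showed no common direction. *Tet1*, the mean of 3 probe sets, changed by 0.08, 0.06, -0.04 and 0.04 in PGK12.1 and by -0.14 and -0.06 in WD44, with means of 0.04 (95% interval -0.06 to 0.13) and -0.10 (interval -0.24 to 0.03), and the difference of 0.14 did not pass (limma adjusted p = 0.308). *Tet2*, the member that lacks a CXXC domain, changed by 0.17, 0.08, -0.05 and 0.06 in PGK12.1 (mean 0.06, interval -0.07 to 0.20) and by -0.27 and 0.07 in WD44. *Tet3*, known as the TET enzyme of the oocyte and zygote, changed by -0.03, 0.08, -0.19 and -0.10 in PGK12.1 (mean -0.06, interval -0.19 to 0.07) and by 0.04 and -0.21 in WD44. The 2 probe sets of *Tet3* went apart in PGK12.1 experiment 2 (0.21 and -0.05).

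*Mbd1* changed by -0.06, -0.11, 0.00 and 0.24 in PGK12.1 (mean 0.02, interval -0.12 to 0.15) and by 0.07 and -0.03 in WD44. The 4 probe sets that *Tdg* shares with its pseudogene moved together, by 0.02 to 0.09, 0.00 to 0.02, 0.03 to 0.05 and 0.13 to 0.14 in PGK12.1 experiments 1 to 4 and by -0.07 to -0.05 and 0.08 to 0.10 in WD44. These values cannot be assigned to the gene or to the pseudogene.

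Across the 9 genes the median change in PGK12.1 was -0.03, with 5 below 0, beside 0.01 over all genes. By limma at an adjusted p under 0.05, 0 of 9 genes were called, where 2.10% of all genes were called lower and 3.71% higher (890 genes, 3467 at an unadjusted p under 0.05), and 2 of the 9, *Dnmt3a* and *Dnmt3b*, had an unadjusted p under 0.05. The paired test named by the methods gave 0 after adjustment and 2, *Dnmt1* and *Dnmt3a*, before it. Lower in all 4 experiments were 2 of 9 genes, where 10.6% of all genes were, and higher in all 4 was 1, *Dnmt1*, where 16.3% were. In WD44 limma called 0 of 9 genes and 0 genes in all (2461 at an unadjusted p under 0.05, among them none of the 9), in the difference between lines 0 (3216 unadjusted, none of the 9), and in double minus single RNAi 0 (1360 unadjusted, *Dnmt3b* among them). WD44 tests borrow their spread from PGK12.1 and from the prior over all genes, since 2 experiments give little of their own. The fit has 4 residual degrees of freedom over both lines and 5.66 prior ones.

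**Figure D3:**
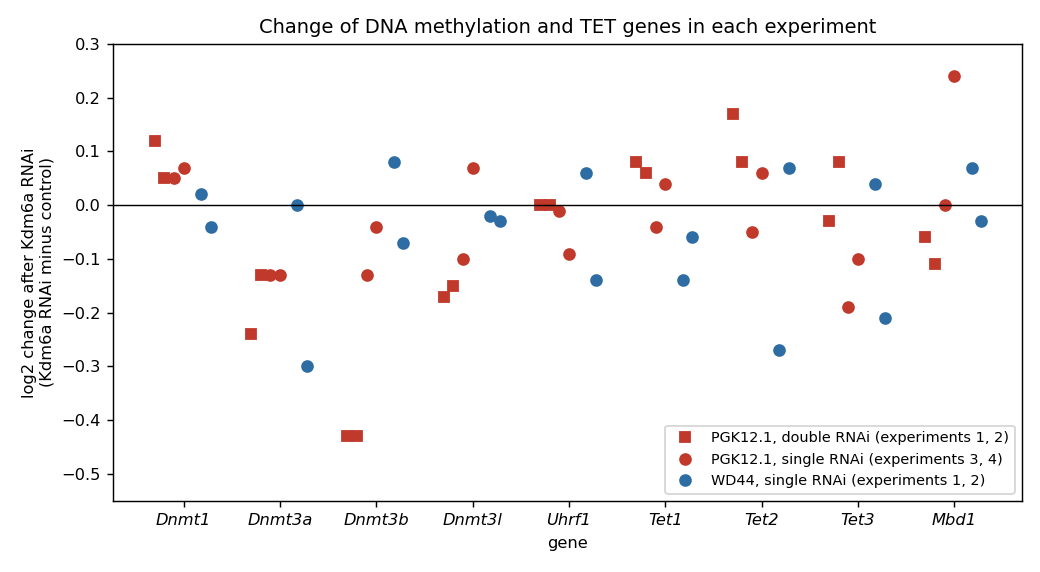
Log2 change after *Kdm6a* RNAi (y axis, *Kdm6a* RNAi minus control array) of the 9 tested genes (x axis) in each experiment, red squares for PGK12.1 double RNAi, red circles for PGK12.1 single RNAi and blue circles for WD44. *Dnmt3b* lies at -0.43 in both double RNAi experiments, *Dnmt3a* and *Dnmt3b* lie below 0 in all 4 PGK12.1 experiments, and the other genes lie on both sides of 0 or, for *Dnmt1*, slightly above it.

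Around these enzymes, 6 lists of pathway genes were described. Where 2.10% of all tested genes were called lower and 3.71% higher after *Kdm6a* RNAi in PGK12.1, calls in these lists fell in the maintenance partners (1 of 10 tested genes higher, 1 lower) and in the genes of demethylation, repair and TET cofactors (2 of 18 higher, 1 lower), and none fell in the other 4 lists. List medians in PGK12.1 were 0.01 and 0.01 for those with calls, beside 0.01 over all genes.

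*Uhrf2*, the paralog of *Uhrf1* that does not replace it in maintenance, changed by 0.40, 0.28, 0.20 and 0.19 in PGK12.1 experiments 1 to 4 and by -0.07 and -0.09 in WD44. Its PGK12.1 mean was 0.27 (SE 0.0478, limma adjusted p = 0.0127), and the difference between lines of 0.35 did not pass (limma adjusted p = 0.0932). The *Uhrf2* call did not hold without PGK12.1 experiment 2 (limma adjusted p = 0.0575). *Dppa3*, whose protein holds UHRF1 away from chromatin, changed by -0.08, -0.34, -0.52 and -0.30 in PGK12.1 (mean -0.31, limma adjusted p = 0.0281) and by -0.23 and -0.43 in WD44 (mean -0.33, limma adjusted p = 0.193). *Dppa3* was thus the lower on the RNAi array in all 6 experiments, though its call did not hold when PGK12.1 experiment 2, 3 or 4 was left out (limma adjusted p = 0.103, 0.0876 and 0.0782).

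*Gadd45b*, a stress-induced gene linked to demethylation, fell in PGK12.1, with changes of -0.23, -0.30, -0.40 and -0.54 (mean -0.37, SE 0.056, limma adjusted p = 0.0069) and gave -0.09 and 0.03 in WD44. Its relative *Gadd45a* rose, by 0.32, 0.41, 0.36 and 0.02 (mean 0.28, limma adjusted p = 0.0344), and lost its call without experiment 1, 2 or 3. *Neil3*, a DNA glycosylase, rose by 0.29, 0.36, 0.37 and 0.23 (mean 0.31, SE 0.0581, limma adjusted p = 0.0147) and gave 0.10 and -0.24 in WD44. The *Neil3* call did not hold without PGK12.1 experiment 2 or 3 (limma adjusted p = 0.068 and 0.055). The lines were not shown to differ for *Gadd45b*, *Gadd45a* or *Neil3* (limma adjusted p = 0.107, 0.186 and 0.0999).

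In the remaining lists the genes nearest to a call are given as values. Among readers of methylated DNA (7 tested) these were *Zbtb38* (mean 0.15, limma adjusted p = 0.0941) and *Mbd6* (0.17, limma adjusted p = 0.129), both higher in all 4 PGK12.1 experiments, and the list median was 0.11. Among genes of de novo targeting (11 tested, median -0.02) these were the H3K4 demethylases *Kdm1b* (0.17, limma adjusted p = 0.0573) and *Kdm1a* (0.09, limma adjusted p = 0.253). The methyl donor cycle (8 tested, median 0.00) had *Ahcyl1* (0.22, limma adjusted p = 0.111) and *Mtrr* (-0.12, limma adjusted p = 0.157). Germline genes known to be silenced by promoter methylation (15 tested, median 0.00) had *Slc25a31* (0.21, limma adjusted p = 0.0828) and *Sycp1* (-0.22, limma adjusted p = 0.127), opposite in sign.

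**Figure D4:**
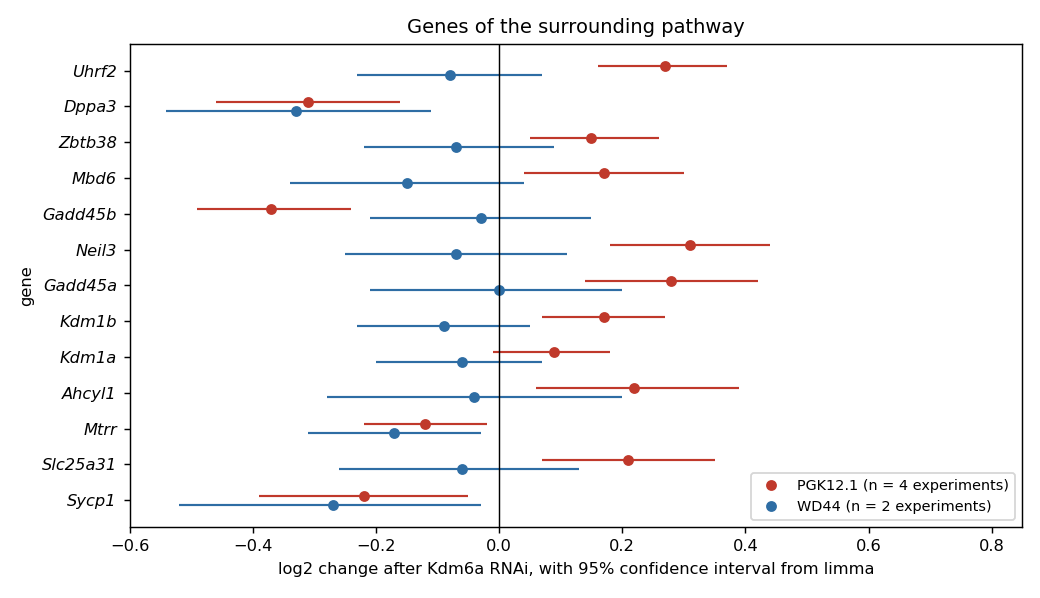
Log2 change after *Kdm6a* RNAi (x axis) of the 13 named pathway genes (y axis), with the mean as a point and the 95% interval from limma as a line, red for PGK12.1 (n = 4 experiments) and blue for WD44 (n = 2 experiments). *Uhrf2*, *Neil3* and *Gadd45a* lie above 0 and *Gadd45b* below it in PGK12.1 with WD44 near 0, while *Dppa3* lies near -0.31 in PGK12.1 and -0.33 in WD44.

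Between the control cells of the lines, where 18.6% of all tested genes were called (1538 lower, 1304 higher in PGK12.1), 1 of 10 maintenance partners was called higher, 1 of 7 readers higher and 1 lower, 4 of 18 demethylation, repair and cofactor genes higher and 1 lower, 3 of 11 de novo targeting genes higher, 1 of 8 methyl donor genes higher, and 2 of 15 germline genes higher and 1 lower. The 4 genes of this paragraph were chosen after their values were seen. *Prdm14*, a repressor of *Dnmt3b* in ES cells, measured 9.13, 9.24, 9.61 and 9.49 (normalized log2 level) on PGK12.1 control arrays and 7.52 and 7.42 on WD44 control arrays. It was 3.73-fold higher in PGK12.1 (log2 difference 1.90, SE 0.166, limma adjusted p = 0.00151) and kept its call with the random block (1.96, limma adjusted p = 0.0246) but not on deposited values (0.59, limma adjusted p = 0.496). A relation of *Prdm14* to *Dnmt3b* in these cells was not tested. After *Kdm6a* RNAi the change of *Prdm14* was 0.05, -0.01, 0.09 and -0.12 in PGK12.1 and -0.08 and -0.17 in WD44. *Hormad1*, a meiotic gene, was higher in PGK12.1 by 1.90 (SE 0.29, limma adjusted p = 0.0079), *Parp1*, a sensor of DNA breaks, by 1.18 (SE 0.218, limma adjusted p = 0.0147), and *Lig1*, the ligase of lagging strand synthesis, by 0.78 (SE 0.158, limma adjusted p = 0.0195, but -0.44 on deposited values). These 3 lost their calls with the random block.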

How the data were processed

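The 12 samples were each hybridized as total RNA to 1 Affymetrix array (Mouse Gene 1.0 ST). Per the labels and methods, the authors made the log2 values with Expression Console and RMA. Tool versions and the sets of arrays normalized at once were not given in the sources. The number of arrays limits the precision. The platform annotation gave 1 gene symbol for 21789 of 35556 probe sets, several for 1621 and none for 12146. Several probe sets of a gene were averaged (999 genes), and 19919 of 19938 symbols matched RefSeq. A gene was tested if its level, averaged over arrays, reached 0.1 of the array mean, which left out 4629 genes.

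limma 3.58.1 (R 4.3.3) was run with lmFit and eBayes, Benjamini-Hochberg adjustment over all tested genes and a threshold of 0.05, and the script was tested on simulated data. RNAi effects were fitted on the deposited log2 values with the experiment as a block, as 1 effect per line (4 residual and 5.66 prior degrees of freedom) or as 3 effects that separate double and single RNAi (3 and 5.48). The block follows the labels, which number control and *Kdm6a* RNAi arrays alike, and the paired tests of the methods. Arrays of 1 experiment deviated together from their group means (r = 0.828, 0.846, 0.915 and 0.972 for PGK12.1, array scale included, and 0.265 for WD44). Control levels were fitted on 6 quantile-normalized arrays (4 and 3 degrees of freedom). Alternatives changed the block, minimum level, moderation, probe sets, normalization and experiments.

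The genes and lists were chosen with earlier results of these data known. Named are all members, *Kdm6a*, and per list up to 4 genes called in either line or their difference, or otherwise the 2 of smallest p in PGK12.1. Promoter windows came from RefSeq tables of GRCm38.p6, and windows of 9 of the 10 genes were searched. Plots used matplotlib 3.10.9 under Python 3.11.15.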

Additional observations from a re-analysis of the deposited data

Results flagged for a closer look

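The values below were singled out by fixed rules on their spread. With 4 experiments, chance sets 1 value apart in about 1 of 20 groups.

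For *Dnmt3a* in PGK12.1, experiment 1 (-0.24) stood apart from the other three, all at -0.13, so that its gap made up 1 of the whole range. For *Uhrf1*, experiment 4 (-0.09) stood apart from 0.00, 0.00 and -0.01, a gap of 0.889 of the range. Both genes kept adjusted p-values above the threshold in limma (0.123 and 0.802).

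Among the named pathway genes, those with every PGK12.1 experiment on one side of 0 and both WD44 experiments on the other were *Uhrf2* (difference between lines 0.35, limma adjusted p = 0.0932), *Mbd6* (0.32, limma adjusted p = 0.13), *Kdm1b* (0.26, limma adjusted p = 0.116), *Zbtb38* (0.22, limma adjusted p = 0.179) and *Kdm1a* (0.15, limma adjusted p = 0.261). All 5 were the higher after *Kdm6a* RNAi in PGK12.1 and the lower in WD44, and the test of the difference did not pass for any of them. These differences set double and single RNAi in PGK12.1 against single RNAi in WD44. The named genes had been picked by their p-values in PGK12.1. Of all tested genes, 16.3% were higher in all 4 PGK12.1 experiments. The share of all genes that also lay lower in both WD44 experiments was not counted. Of the listed genes that were not named, *Apobec1* (difference between lines 0.54), *Mbd4* (0.32), *Cxxc5* (0.24) and *Dazl* (0.24) lay the same way, and the difference did not pass for these either (limma adjusted p = 0.091, 0.0924, 0.153 and 0.13). They were chosen after their values were seen.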

How the results depend on the processing

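After *Kdm6a* RNAi in PGK12.1 the count of called enzymes (0 of 9) became 1 (*Dnmt3b*) with a minimum level of 0.25 of the array mean or with double RNAi experiments alone, 2 (*Dnmt3a*, *Dnmt3b*) with trend and robust moderation, 2 (*Dnmt1*, *Dnmt3a*) with the methods' t-test unadjusted, and 0 to 1 when an experiment was left out, *Dnmt3b* being called without PGK12.1 experiment 4. In WD44, in the difference between lines and in double minus single RNAi it stayed at 0 under every alternative run. Without the pairing of arrays as a replicate block, 0 enzymes and 0 of all genes were called in PGK12.1. For control levels the count of 2 became 1 (*Tet3*) on deposited values, where the median of all genes was -1.22, and 0 with array set as a random block. It became 1 (*Dnmt3b*) with single RNAi controls alone and 1 without PGK12.1 experiment 1, 2 or 3. Without experiment 4 it was 5 (*Dnmt3b*, *Dnmt3l*, *Mbd1*, *Tet3*, *Uhrf1*), where 8858 of the 15309 tested genes were called. With each array centred on its median it was 3, *Mbd1* being added. Without WD44 experiment 1 or 2, which leaves 1 WD44 control, the difference was -1.18 or -1.08 for *Dnmt3b* and -1.12 or -1.01 for *Tet3*. On deposited values, of the genes called higher, *Neil3* (-0.42), *Kdm1b* (-0.82), *Mtrr* (-0.64) and *Lig1* (-0.44) turned lower in PGK12.1. Genes that had not been called also changed sign there, among them *Gadd45a* (-0.48) and *Uhrf1* (-0.35), beside the median of -1.22 over all genes.

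Genes called in PGK12.1 (890) became 1365 at the 0.25 minimum, 452 with none, 1647 with trend and robust moderation, 182 and 101 with double or single RNAi alone, 0 and 2444 with the t-test adjusted and unadjusted, and 350 to 607 when an experiment was left out. The 0 calls of WD44 became 1, 12 and 1, those of the difference 267, 554 and 2 (0.25 minimum, trend and robust, quantile), and that of double minus single RNAi 1 with trend and robust. Called control levels (2842, 54.1% lower) became 857 (99.4% lower) on deposited values, 194 (60.8%) with the random block and 418 (63.2%) with single RNAi controls. They became 1279 (60.4%), 1127 (61.3%), 2019 (56.6%) and 8858 (47.9%) without PGK12.1 experiment 1, 2, 3 or 4, in that order. The causes were not tested.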
